A study of Homo sapiens with 6 samples.

Results

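The genes described here encode proteins of homologous recombination, of the Fanconi anaemia pathway and of mismatch repair, 36 genes in all out of 22153 in the table. They were chosen from a list of gene names, because such genes are reported to fall in hypoxia, and were matched by Ensembl identifier and symbol. All 36 were found in the table. RNA was measured in EA.hy926, an established human hybrid of endothelial cells from the umbilical vein and a lung carcinoma line, so 1 hybrid line stands for endothelium here. Polyadenylated RNA was sequenced in 3 libraries from cells at 20% oxygen (normoxia) and in 3 from cells given 8 h at 1% oxygen (hypoxia), with no other treatment and the same medium. The series asks which genes change after 8 h of hypoxia.

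Homologous recombination repairs a broken DNA duplex by copying from the sister chromatid, and so works mainly in S and G2 phase. The MRE11-RAD50-NBN complex finds the break and starts resection of its ends, BRCA1 with BARD1 and PALB2 brings in BRCA2, and BRCA2, helped by mediators such as XRCC2 and XRCC3, prepares the resected strand for strand exchange. The Fanconi anaemia core complex adds ubiquitin to the FANCI-FANCD2 clamp when a fork meets a DNA crosslink, and hands the lesion to nucleases and recombination. MutS pairs (MSH6 or MSH3 with a shared partner) recognise mispaired bases and loops left by replication, and MutL pairs that hold PMS2 or PMS1 act after them.

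The 6 libraries held 17226736 to 18652704 reads assigned to genes, and the 36 repair genes took 292 to 605 of every 1000000 reads (RPM). The deposited values are whole reads divided by 1 size factor per library, called scaled reads below. The hypoxia labels held in these libraries: all 10 tested genes of a list of hypoxia responses were higher in hypoxia, with a median log2 difference of 1.88, and 5 passed the test. Of 9 endothelial markers all were measured, and their sum ranged from 2578 to 5435 RPM in normoxia and from 2807 to 7083 in hypoxia. Of 7 epithelial markers 6 were in the table, with sums of 3147 to 5130 and 2507 to 4309, made up almost wholly of the keratins KRT7, KRT8 and KRT18. CDH1 was not in the table. EPCAM, KRT19 and MUC1 were low, with at most 17.9, 19.0 and 118 scaled reads in any library. Fibroblast and mural markers (3 of 6 in the table) and leukocyte markers (3 of 4) summed to at most 12.1 and 6.27 RPM in any library.

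Normoxia library 3 stood apart from the others and bears on every result below. Its mean correlation with the other 5 libraries over 10237 genes was 0.90, against 0.94 to 0.95 for the rest. Its reads leaned to genes of low GC content, by -0.44 log2 units for each 10 points of GC. The same slope was 0.36 and 0.09 in normoxia libraries 1 and 2, and -0.16, 0.28 and -0.13 in hypoxia libraries 1, 2 and 3. Values without this library are therefore given beside many of the results that it moves. Those values have a GC trend of their own. The log2 ratio of hypoxia to normoxia libraries 1 and 2 had a Spearman rho with GC content of -0.52 across 10233 genes tested. Across the 36 members it was -0.70. In such values genes of low GC content tended to be higher in hypoxia, so they are not cleaner estimates.

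The repair genes span a wide range of base composition, and the 4 stretches below show its ends. BRCA2 and FANCB are among the 3 members of lowest GC content, and XRCC3 and MUS81 are the 2 of highest. Shown are the middle 120 bases of the longest annotated coding sequence, from GENCODE 29 (GRCh38), printed 5′ to 3′ on the coding strand with G and C in capitals.
BRCA2: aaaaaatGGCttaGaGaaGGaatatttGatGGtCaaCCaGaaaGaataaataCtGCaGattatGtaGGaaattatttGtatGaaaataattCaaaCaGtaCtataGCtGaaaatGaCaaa
FANCB: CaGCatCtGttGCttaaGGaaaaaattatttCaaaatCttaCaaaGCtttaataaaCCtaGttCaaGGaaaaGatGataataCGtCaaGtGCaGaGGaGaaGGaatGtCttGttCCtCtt
MUS81: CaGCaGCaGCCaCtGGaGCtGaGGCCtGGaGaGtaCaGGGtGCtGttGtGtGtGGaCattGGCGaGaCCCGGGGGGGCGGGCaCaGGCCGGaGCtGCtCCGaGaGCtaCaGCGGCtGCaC
XRCC3: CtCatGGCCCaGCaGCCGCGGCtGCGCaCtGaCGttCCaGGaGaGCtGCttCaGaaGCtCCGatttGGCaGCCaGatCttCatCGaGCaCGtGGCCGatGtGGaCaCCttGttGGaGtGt

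The stretch of BRCA2 (chromosome 13, 32315474 to 32400266, plus strand) is 27.5% GC and that of FANCB (chromosome X, 14835961 to 14873069, minus strand) 33.3%. The stretch of MUS81 (chromosome 11, 65857126 to 65867653, plus strand) is 67.5% GC and that of XRCC3 (chromosome 14, 103697609 to 103715504, minus strand) 60.0%. Over all their transcripts the 36 genes ran from 36.3% GC in BRCA2 to 61.1% in XRCC3. Of the 36 members 23 lay under 45% GC, or 63.9%, against 30.4% of the genes tested. Of the 24 members that were tested 11 lay under 45% GC.

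No repair gene passed the test between hypoxia and normoxia. Of the 36 members 24 reached the filter on low values (3 or more libraries at an FPKM of 1), and 0 of these 24 had an adjusted p below 0.05 by limma. Over all 10237 genes tested, 0.0977% were called, and 0.0% were called lower in hypoxia. At an unadjusted p under 0.05 there were 0 members, against 2.69% of all genes tested. The smallest unadjusted p among the members was 0.0880, for RAD54L. DESeq2 and edgeR with no filter on low counts, which took in all 36 members, called 0 of them as well, with 0 members at an unadjusted p under 0.05 by either tool. DESeq2 called 0.29% of the genes it tested and edgeR with no filter 0.131%. limma with no filter on low values called 0 of 36 members and 0.0181% of all genes, and limma without normoxia library 3 called 0 of 24 members and 0.195% of genes.

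By sign alone the tested members leaned to lower values in hypoxia, 16 of 24 (66.7%), beside 49.4% of all genes tested. Their median log2 difference was -0.10, beside 0.00 for all genes. Without normoxia library 3 the lean was gone: 10 of 24 were negative (41.7%, beside 49.4% of all genes). The median of the members was then 0.05, beside 0.01 for all genes. These shares are not matched for GC content. In that fit 16.8% of all tested genes under 45% GC were negative, and 63.7% of those of 45% GC or more. The lean was also gone without hypoxia library 2, with 11 of 24 negative (45.8%, beside 49.0%) and a median of 0.05, beside 0.01. All 24 intervals of 95% held 0. Of these, 12 (50.0%) reached below -1, a fall to 0.5 of the normoxia level, beside 24.4% of all genes tested. Above 1 reached 5 (20.8%, beside 26.1%). For the 12 genes the libraries do not bound a fall within that size. These are bulk libraries, in which fewer cells that express a gene and less RNA per cell cannot be told apart.

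**Figure D1:**
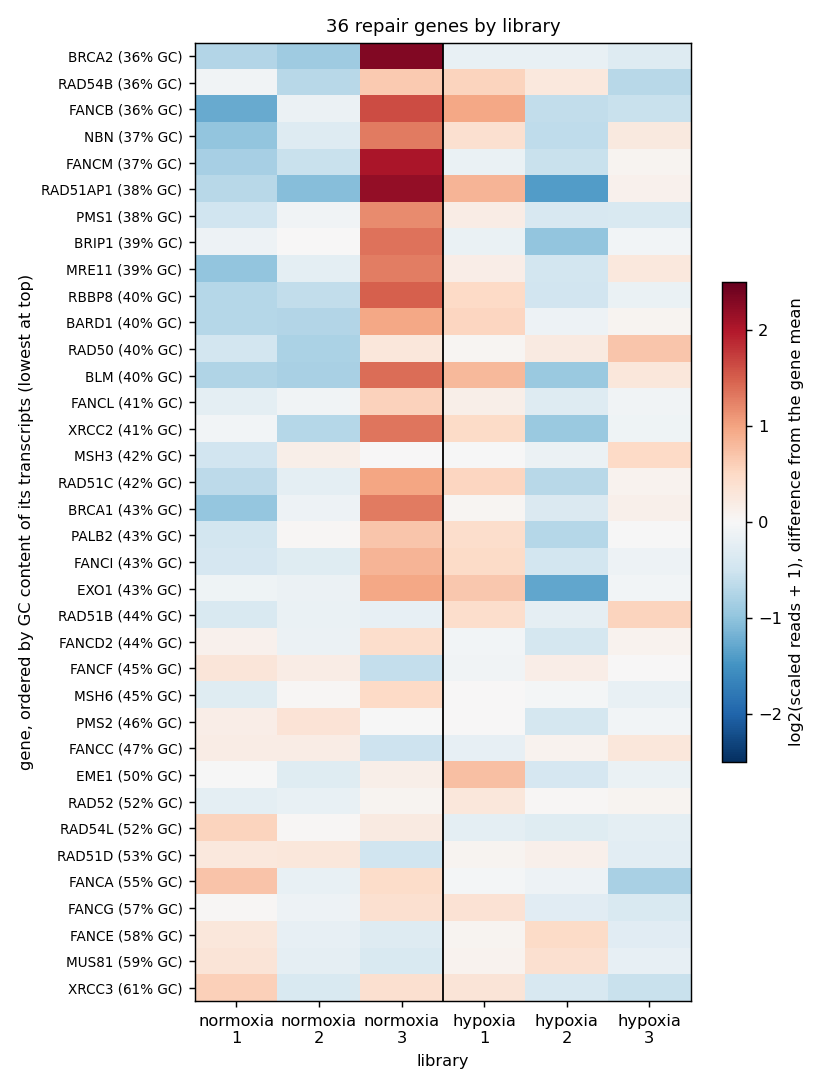
Heat map of the 36 repair genes (rows, from 36.3% GC in BRCA2 at the top to 61.1% in XRCC3 at the bottom) in the 6 libraries (columns). Colour gives log2(scaled reads + 1) as the difference from the gene's mean over the libraries. The column of normoxia library 3 is the highest of the 6 for 22 of the 36 genes, 20 of them in the 23 rows under 45% GC.

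Normoxia library 3 was the highest of the 6 libraries for 22 of the 36 members (61.1%), beside 27.4% of the genes tested. It exceeded the mean of the other 2 normoxia libraries at least 2-fold for 17 of the 36, or 47.2%, against 14.5% of the genes tested. Hypoxia library 2 was the lowest for 13 members (36.1%, against 17.5%). The excess in normoxia library 3 went with base composition: 20 of the 23 members under 45% GC had their highest value there, and 2 of the 13 others. Of all genes tested in the same classes, 64.9% and 11.03% had theirs there. The member shares in this paragraph take in the 12 members below the filter, whereas the shares beside them cover only genes that passed it. Of those 12 members 10 were highest in normoxia library 3, so the shares are not like for like. Across the 36 members the log2 excess and GC content had a Spearman rho of -0.83 (Pearson r = -0.72), and across 10233 genes tested rho was -0.63. These are correlations across genes that share the same libraries, given as a description. With exonic length the rho over the members was 0.11.

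**Figure D2:**
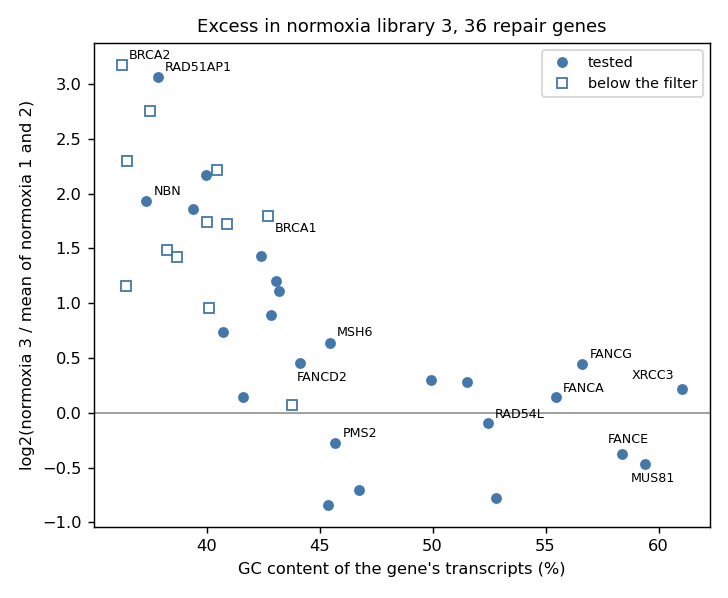
Each point is 1 of the 36 repair genes, filled where the gene was tested and open where it was below the filter. The horizontal axis is the GC content of its transcripts in percent and the vertical axis the log2 ratio of normoxia library 3 to the mean of normoxia libraries 1 and 2. BRCA2, 9.03 times higher in library 3, and RAD51AP1, 8.36 times higher, lie at the top left.

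A correction took each library's trend on GC content out of the values. In normoxia library 3 the median deviation of the tested members under 45% GC from their own means was 0.91 log2 units before it and 0.38 after it. For the members of 45% GC or more it was 0.06 before and 0.35 after, and over all 24 it was 0.40 and 0.37. After the correction 0 members passed, and 17 of 24 were negative (70.8%, beside 53.5% of all genes). The median difference was -0.12, beside -0.02 for all genes. By limma 1 member, RAD54L, had an unadjusted p under 0.05 (0.0326). Of all genes 0.274% were called after it.

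Sensing and resection of the break ends were covered by 6 genes, of which 4 were tested. EXO1, an exonuclease that extends resection, had 83.7, 81.4 and 178 scaled reads in normoxia and 144, 36.3 and 86.5 in hypoxia. The groups overlapped, and the difference was -0.42 on the log2 scale (95% interval -1.63 to 0.79; limma, adjusted p = 1.00). It was -0.08 without normoxia library 3 and 0.06 without hypoxia library 2. RBBP8, which encodes the CtIP protein that opens resection with MRE11, had 128, 138 and 597 in normoxia and 298, 150.4 and 187 in hypoxia. Its highest value was in normoxia library 3, and its lowest 2 were in the other normoxia libraries. The log2 difference of -0.12 became 0.58 without that library.

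The nuclease MRE11 and its partner NBN were also highest in normoxia library 3. MRE11 had 69.9, 117 and 339 scaled reads in normoxia and 158, 102 and 167 in hypoxia, a log2 difference of -0.04, or 0.55 without normoxia library 3. NBN had 181, 287 and 893 and then 479, 233 and 425, a log2 difference of 0.00 (95% interval -1.31 to 1.32) and 0.64 without that library. Neither gene separated the groups. RAD50, the ATPase that holds the ends together, was below the filter, with 12.3 to 27.3 scaled reads in normoxia and 22.8 to 36.1 in hypoxia. In GENCODE 29, 79.7% of its exon bases are shared with another gene on the same strand, AC116366.3, which is not analysed here. BLM, the helicase mutated in Bloom syndrome, was below the filter too, at 44.5, 42.6 and 202 scaled reads in normoxia and 134, 39.4 and 92.2 in hypoxia, again with its highest value in normoxia library 3.

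The BRCA genes were expressed at low levels, and only PALB2 of the 5 reached the filter. BRCA1 (chromosome 17, 43044295 to 43170245, minus strand), the ubiquitin ligase that promotes resection, had 73.1, 131 and 355 scaled reads in normoxia and 149, 111 and 156 in hypoxia. Its 3 hypoxia values lay between the second and the third normoxia value or just below the second. The group means were 186 ± 149 and 139 ± 24.3 (SD, n = 3 per group), a ratio of 0.745, and the ratio was 1.36 without normoxia library 3. BRCA2, which acts on the resected strand after PALB2, had 23.3, 20.8 and 199 in normoxia and 34.2, 34.2 and 31.4 in hypoxia. All 3 hypoxia values were above 2 of the normoxia values and far below the third. The ratio of means was 0.41 with every library and 1.51 without normoxia library 3.

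The partners of BRCA1 and BRCA2 were likewise highest in normoxia library 3. BARD1, the other subunit of the BRCA1 ligase, had 28.6, 28.4 and 94.98 scaled reads in normoxia and 69.5, 43.6 and 50.4 in hypoxia. BRIP1, a helicase that binds BRCA1, had 71.0, 77.7 and 199 and then 68.4, 38.4 and 74.1. Its ratio of means was 0.52, and 0.812 without normoxia library 3, so BRIP1 alone of the 12 members below the filter had a lower hypoxia mean in both cases. It had the smallest unadjusted p of all members by DESeq2 (0.0616, adjusted p = 1.00). PALB2, the bridge between BRCA1 and BRCA2, had 110.1, 155 and 246 in normoxia and 204, 92.3 and 150.2 in hypoxia, and its log2 difference was -0.18 (95% interval -1.12 to 0.75), or 0.11 without normoxia library 3.

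**Figure D3:**
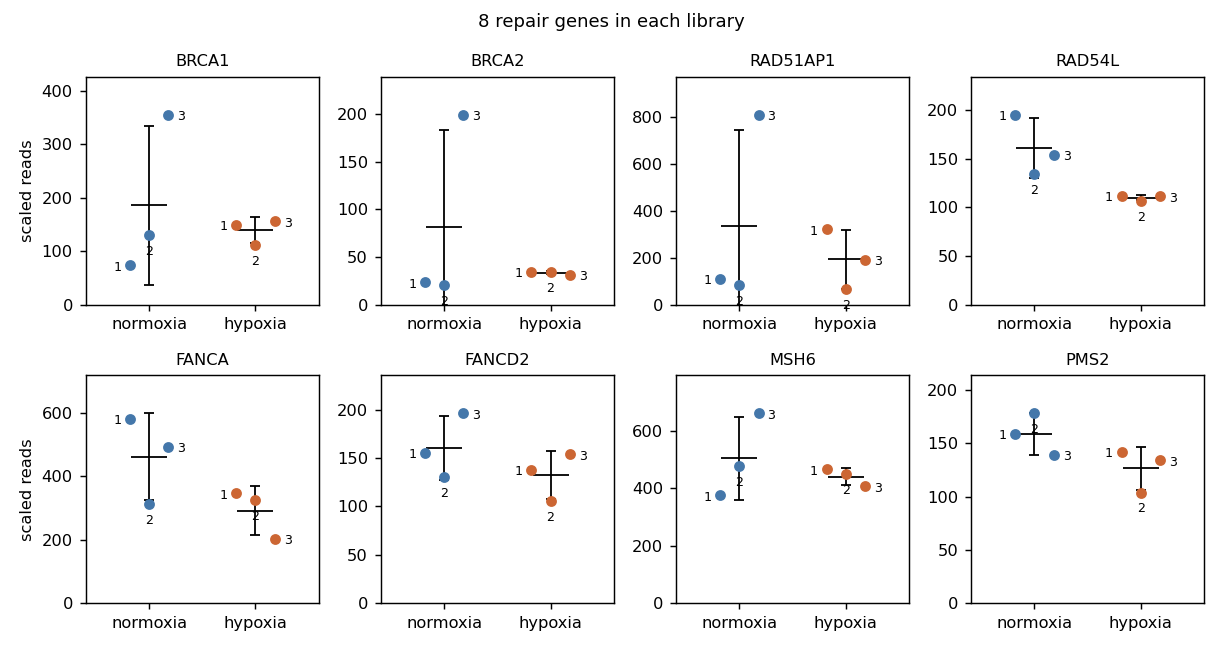
Scaled reads of 8 repair genes in each library, with points numbered by replicate, normoxia on the left and hypoxia on the right of each panel. The horizontal bar is the group mean and the error bar 1 SD of 3 libraries, drawn down to 0 where it would pass below. RAD54L is the panel in which the groups do not overlap, and in the BRCA1, BRCA2 and RAD51AP1 panels normoxia library 3 stands far above the other 5.

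Among the mediators of strand exchange, RAD54L was the member whose groups did not overlap. RAD54L, a DNA translocase that drives strand exchange, had 195, 134 and 154 scaled reads in normoxia and 112, 107 and 111 in hypoxia. Every hypoxia value lay below every normoxia value, which held for 1 of the 24 tested members, 4.17%, and for 2.72% of all genes tested. Over all genes in the table it held for 1 of 36 members and 2.82% of genes. In the other direction 0 members had groups that did not overlap, beside 4.77% of genes tested and 4.01% of all in the table. The means were 161 ± 30.8 and 110.0 ± 2.80 (SD, n = 3), and hypoxia differed by -0.51 log2 units (95% interval -1.12 to 0.10; limma, adjusted p = 1.00). The value was -0.54 without normoxia library 3 and -0.49 without hypoxia library 2. RAD54L (chromosome 1, 46247688 to 46278473, plus strand) shares 806 bp, 25.1% of its exon bases, with LRRC41 on the other strand, which had a mean of 2412 scaled reads in normoxia and 2184 in hypoxia. No source used here says whether reads were counted by strand, so those from the shared stretch cannot be told apart.

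RAD51AP1, which aids pairing of the DNA strands, varied most among the tested members. It had 109, 84.3 and 809 scaled reads in normoxia and 320.5, 66.4 and 190.1 in hypoxia. Normoxia library 3 stood 8.36 times above the mean of the other 2, and the interval of the log2 difference, -0.29, ran from -2.33 to 1.75. RAD52, a mediator that anneals single strands, was by contrast even: it had 95.3, 99.4 and 118 in normoxia and 137, 115 and 118 in hypoxia, which is 0.23 on the log2 scale (95% interval -0.40 to 0.85).

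None of RAD51B, RAD51C, RAD51D, XRCC2 and XRCC3, which form the paralog complexes, passed a test, and their values differed in which library was highest. XRCC3, a paralog that works with RAD51C, had 378, 193 and 333 scaled reads in normoxia and 315, 191 and 170.2 in hypoxia, a log2 difference of -0.39 that ranged from -0.67 to -0.21 with 1 library left out. In XRCC3, 76.7% of the exon bases are shared with KLC1 on the other strand. RAD51C, part of both paralog complexes, had 193, 256 and 603 and then 439.7, 189 and 324, and its log2 difference of -0.05 was 0.42 without normoxia library 3. RAD51D, with 361, 369 and 213 and then 317, 331 and 251, was lowest in normoxia library 3, the reverse of RAD51C, and its GC content is 52.8% against 42.4%. RAD51B and XRCC2 were below the filter. RAD51B had 101 to 117 in normoxia and 113 to 194 in hypoxia, a ratio of means of 1.46, and XRCC2 had 37.9 to 159.9 and 32.1 to 87.1. RAD54B, a relative of RAD54L, had 3.79 to 11.3 scaled reads in normoxia and 3.80 to 10.4 in hypoxia, too few to show a difference at this depth, and 59.1% of its exon bases are shared with FSBP. RAD51D shares 8.01% with a gene on the same strand that is not analysed here.

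The nucleases that cut recombination junctions, MUS81 and its partner EME1, had positive log2 differences of 0.19 and 0.11. MUS81 had 652, 449.8 and 399.7 scaled reads in normoxia and 560.0, 689 and 457 in hypoxia (95% interval -0.46 to 0.85). EME1 had 85.8, 69.1 and 94.98 and then 145, 64.3 and 76.0 (95% interval -0.73 to 0.95). Both overlap abundant genes on the other strand: 13.9% of the exon bases of MUS81 lie in CFL1 and 16.4% of those of EME1 in LRRC59, with normoxia means of 25898 and 4826 scaled reads.

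In the Fanconi core complex FANCA had the largest difference of all tested members. FANCA, a scaffold subunit, had 580.4, 312.5 and 492 scaled reads in normoxia and 346, 326 and 202 in hypoxia. The groups overlapped through normoxia library 2, which lay below 2 of the hypoxia values. The means were 462 ± 136 and 291 ± 77.8 (SD, n = 3), and hypoxia differed by -0.62 log2 units (95% interval -1.42 to 0.17; limma, adjusted p = 1.00). The value was -0.56 without normoxia library 3, -0.44 without normoxia library 1 and -0.40 without hypoxia library 3, where RAD54L, at -0.52, had the larger difference. FANCA (chromosome 16, 89737549 to 89816657, minus strand) shares 23.6% of its exon bases with ZNF276 on the other strand.

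Of the other 5 tested core subunits, 2 had a negative and 3 a positive log2 difference. Without normoxia library 3 the values were -0.05 for FANCG, 0.05 for FANCE, 0.08 for FANCL, -0.12 for FANCC and -0.21 for FANCF. FANCG, which joins FANCA in one module, had the highest level per length of the 36 genes, with an FPKM of 11.8 in normoxia and 10.4 in hypoxia. It had 716, 640.2 and 923 scaled reads in normoxia and 904, 579 and 539 in hypoxia, a log2 difference of -0.19. FANCE, the subunit that touches FANCD2, had 177, 126 and 117 and then 152, 203 and 119.8, a log2 difference of 0.17. FANCL, the ubiquitin ligase of the complex, had 64.6, 72.0 and 114 and then 85.0, 61.2 and 72.2, a log2 difference of -0.16. In all 3 the groups overlapped. FANCC and FANCF had log2 differences of 0.09 and 0.06, and both were lowest in normoxia library 3. FANCL shares 18.7% of its exon bases with VRK2 and FANCF 11.3% with GAS2, both on the other strand. FANCM, the translocase that anchors the complex on DNA, and FANCB, the partner of FANCL, were below the filter and highest in normoxia library 3. FANCM had 30.7, 36.9 and 229 in normoxia and 48.7, 37.3 and 58.0 in hypoxia, and FANCB had 9.53, 21.8 and 77.1 and then 48.7, 15.6 and 16.2.

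The clamp that the core complex modifies showed small differences. FANCD2 had 156, 131 and 197 scaled reads in normoxia and 138, 106 and 154 in hypoxia. The hypoxia values lay within or just below the normoxia range, and they differed by -0.25 on the log2 scale (95% interval -1.03 to 0.53), which did not pass (limma, adjusted p = 1.00). The value was -0.11 without normoxia library 3. FANCI had 240.4, 259 and 576 and then 450.1, 232 and 292, a log2 difference of -0.08 that became 0.31 without that library.

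Mismatch repair was covered by 4 members, of which 3 were tested. MSH6, which pairs with its partner to recognise single mispairs, had 375, 477 and 661 scaled reads in normoxia and 466, 449.0 and 407 in hypoxia. All hypoxia values lay within the normoxia range, and the log2 difference was -0.15 (95% interval -0.83 to 0.52), or 0.05 without normoxia library 3. MSH3, which recognises larger loops, had 80.5, 124 and 113 and then 111, 102 and 159, a log2 difference of 0.21 (95% interval -0.54 to 0.95). In MSH6, 16.2% of the exon bases are shared with FBXO11 on the other strand.

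PMS2, the nuclease subunit of the main MutL pair, had 159, 178 and 139 scaled reads in normoxia and 142, 104 and 134 in hypoxia. A single hypoxia value, in library 1, lay above the lowest normoxia value, and the difference of -0.32 log2 units (95% interval -0.94 to 0.31; limma, adjusted p = 1.00) was -0.40 without normoxia library 3 and -0.19 without hypoxia library 2. PMS2 has many partial copies in the genome. The copy PMS2P1 held 95.4% as many reads as PMS2 and PMS2P3 19.1%, so how the authors' counting split reads among them bears on the level. PMS1, whose role in repair is minor, was below the filter at 50.8, 68.2 and 166 in normoxia and 81.9, 55.0 and 55.1 in hypoxia.

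**Figure D4:**
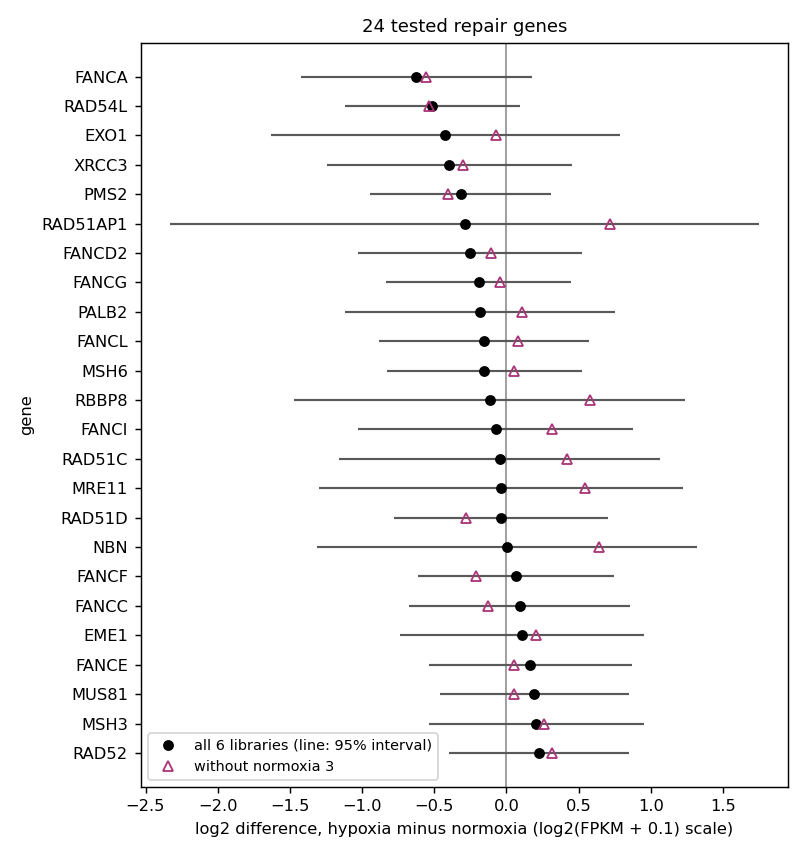
Log2 difference between hypoxia and normoxia for the 24 tested repair genes, on the log2(FPKM + 0.1) scale, with filled circles for all 6 libraries, lines for the 95% interval and open triangles for the fit without normoxia library 3. All 24 lines cross 0, and the triangles of NBN, MRE11, RBBP8 and RAD51AP1 lie between 0.55 and 0.72.

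The 12 members below the filter were summarised by their group means, with no test. The hypoxia mean was lower in 8 of 12 with all libraries and in 1 of 12 without normoxia library 3, and 10 of the 12 were highest in that library. Over all 36 members the hypoxia mean was lower in 25 (69.4%, against 53.0% of all genes in the table) and, without that library, in 10 (27.8%, against 47.8%). The signs are given by base composition as well. Among the 11 tested members under 45% GC, 9 (81.8%) were negative with all libraries, beside 46.9% of all tested genes under 45% GC. Without normoxia library 3 there were 2 (18.2%), beside 16.8% of those genes. Among the 13 members of 45% GC or more, 7 were negative with all libraries and 8 without it, or 53.8% and 61.5%, near the 50.5% and 63.7% of all tested genes of that GC content.

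Other genes that act beside the members gave 0 calls in either direction. Of 33 further genes of recombination and crosslink repair 24 were tested, with 14 negative and a median log2 difference of -0.06, or 0.05 without normoxia library 3. SLX4, a nuclease scaffold, had the largest difference there, -0.50, followed by SWI5, a recombination accessory protein, at 0.40 and FAAP100, a core complex partner, at -0.39. Without that library SLX4 was at -0.68, SWI5 at 0.36 and FAAP100 at -0.48. Checkpoint signalling genes had a median of -0.19 over 12 tested genes, 9 of them negative, with CLSPN, the adaptor of the CHK1 kinase, at -0.62, the ubiquitin ligase RNF168 at -0.48 and the histone H2AX at -0.45. Without normoxia library 3 the checkpoint median was -0.06 with 6 negative, CLSPN was at -0.20, RNF168 at -0.29 and H2AX at -0.45. Other mismatch repair factors, which are shared with the replication fork, had a median of -0.15 over 11 tested genes, with the polymerase subunit POLD4 at 0.74, the clamp PCNA at -0.39 and POLD1 at -0.34. Without that library their median was 0.03, POLD4 was at 0.07, PCNA at -0.19 and POLD1 at -0.36.

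The competing and parallel repair routes also held 0 genes past the test. End joining had a median log2 difference of -0.05 over 11 tested genes, led by the kinase PRKDC at -0.39, and without normoxia library 3 these were 0.03 and -0.22. Base excision repair had -0.03 over 12 tested genes, led by the glycosylase NEIL2 at 0.49, and without that library -0.11 and 0.11. Nucleotide excision repair had -0.10 over 10, led by the helicase ERCC2 at -0.46, and without it -0.03 and -0.40. The median of the 24 repair members, -0.10, was at the level of nucleotide excision repair and below those of end joining and base excision repair. The difference between lists was not tested.

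The sums of mitosis genes and of the members were highest and lowest in the same libraries. A list of 10 mitosis genes summed to 437, 459.6 and 969.9 RPM in normoxia and to 649.6, 345 and 514 in hypoxia. The 36 repair genes summed to 346, 364 and 605 and then to 425, 292 and 365, so normoxia library 3 was highest and hypoxia library 2 lowest for both. Of the 10 mitosis genes 8 were negative in hypoxia with all libraries, with a median of -0.14, and 1 without normoxia library 3, with a median of 0.20. MKI67, the proliferation antigen, had 610.1, 661 and 1519 scaled reads in normoxia and 491, 545 and 446 in hypoxia, so its groups did not overlap. Its log2 difference was -0.76 (95% interval -1.64 to 0.11) and did not pass (limma, adjusted p = 1.00), and it was -0.35 without normoxia library 3.

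Of 13 tested S phase genes 12 were negative, with a median log2 difference of -0.29, and 11 were negative without normoxia library 3, with a median of -0.15. None passed the test, and MCM5, part of the replicative helicase, had the largest difference, -0.58, or -0.40 without that library. The E2F factors and pocket proteins, which control transcription of many replication and recombination genes, had 10 of 16 tested members negative and a median of -0.24, or -0.06 without that library. MYBL2 and RBL1 had the largest differences there, -0.52 and -0.49, which were -0.13 and 0.00 without it. Sums of endothelial and epithelial markers differed between libraries as well. The endothelial sum was 5435, 5317 and 2578 RPM in normoxia and 2807, 7083 and 4848 in hypoxia. It was lowest in normoxia library 3 and highest in hypoxia library 2. PECAM1, CDH5, TIE1, ENG and CD34 were also lowest in normoxia library 3. KDR, VWF and ERG were lowest in hypoxia library 1, and TEK in normoxia library 1. The epithelial sum was 3147, 3400 and 5130 and then 4309, 2507 and 3570, highest in normoxia library 3 and lowest in hypoxia library 2. KRT7 and KRT18 were also highest in normoxia library 3, as was EPCAM, at only 17.9 scaled reads. KRT8 was highest in hypoxia library 1, and MUC1 and KRT19, both low, in hypoxia library 3. The part of proliferation, of cell composition and of library preparation in the repair gene values was not tested.

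**Figure D5:**
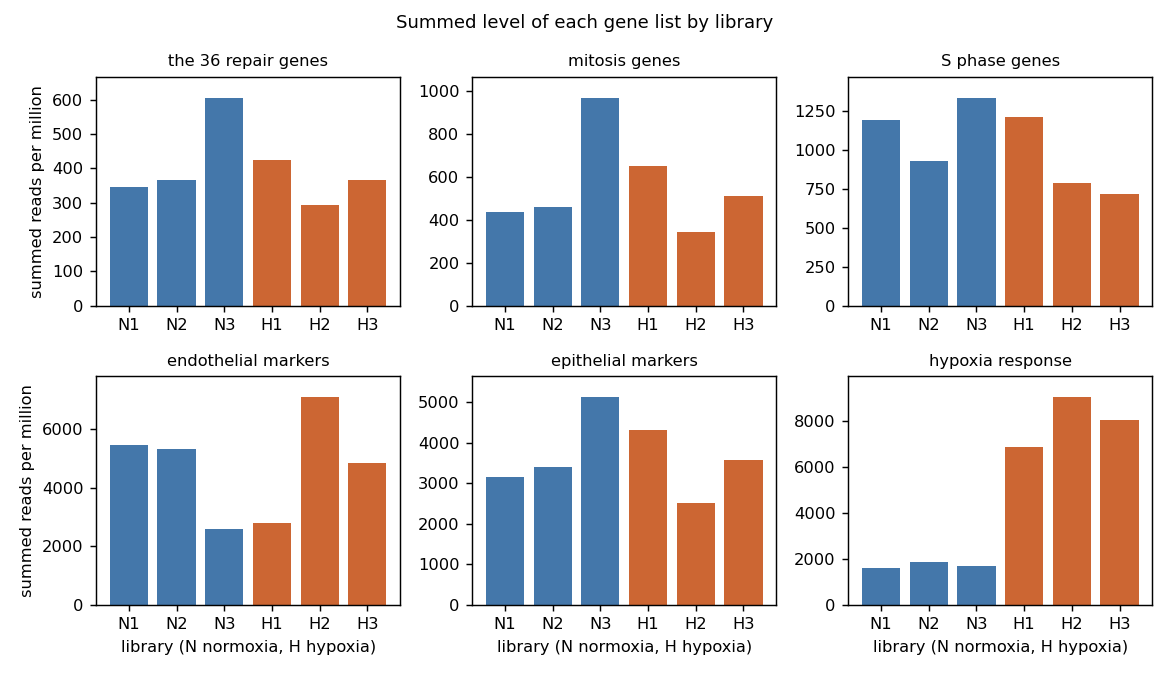
Summed RPM in each library for the 36 repair genes and for lists of mitosis, S phase, endothelial, epithelial and hypoxia response genes, as bars from 0 (N normoxia, H hypoxia, numbered by replicate). The repair, mitosis, S phase and epithelial panels peak in normoxia library 3, and the endothelial panel is lowest there. The hypoxia response panel separates the groups, with 1607 to 1853 in normoxia and 6878 to 9060 in hypoxia.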

How the data were processed

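Polyadenylated RNA of EA.hy926 cells was sequenced, with 3 libraries per group. The submitters' processing notes list CASAVA, HISAT2 2.0.5 and featureCounts 1.5.0-p3, with no settings. They also list mm9, yet the gene identifiers are human. For the build, annotation and strand setting, no source used here says what was used. The deposited signal is named for FPKM, but 100% of the values in each library were whole multiples of 1 step (tolerance 0.05 of a step). It is read counts divided by a size factor, with no length division.

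Values were divided by exon length (GENCODE 29) and the mean library total to give FPKM. The 10237 genes with 3 or more libraries at an FPKM of 1 were fitted as log2(FPKM + 0.1) with limma 3.58.1 (R 4.3.3), with a mean-variance trend, robust estimates and group as the only term. All p-values are two-sided. Those called adjusted use Benjamini and Hochberg's method with a threshold of 0.05, over these genes for the main fit. Each other fit was adjusted over the genes that it tested, which were 22153 for edgeR with no filter. For DESeq2 they were the 20006 left by its own filter. A fold on the log2(FPKM + 0.1) scale understates the change of low genes. edgeR 4.0.16 and DESeq2 1.42.0 were run on the recovered reads. The labels do not say whether replicates were separate cultures, so the spread behind each p-value may be technical. Low-level members have few reads, which limits precision. The fit was run on simulated counts with known changes and no trend on GC content. That run does not cover the excess in normoxia library 3.

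The members, lists and tests were chosen with earlier results of these data known. In each role group the tested members with the largest differences were given in every library, as were BRCA1, BRCA2, FANCD2 and MSH6, and up to 3 genes were named from each other list. In 21 of the 36 members exons overlap another annotated gene. Some well-known genes of these pathways are not reported here.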

Additional observations from a re-analysis of the deposited data

How the results depend on the processing

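No member passed the test under any of 22 other settings. Of the tested members 16 of 24 were lower in hypoxia, and 10 to 18 when 1 library was left out (10 without normoxia library 3). The count was 26 of 35 by edgeR with TMM, 25 of 35 with RLE, 25 of 36 with no filter, 25 of 36 by DESeq2, 1 of 3 with an FPKM of at least 5, and 5 of 7 without members whose exons overlap another gene. The median log2 difference, -0.10, ranged from -0.30 to 0.053 with 1 library left out, and was 0.063 for the 3 genes with an FPKM of at least 5. Of all genes, 10 were called, and 1 to 20 with 1 library left out (4, 5 and 20 without normoxia libraries 1, 2 and 3, and 5, 3 and 1 without hypoxia libraries 1, 2 and 3). The count was 4 with no filter, 28 after GC correction, 34 with GC and length, 29 by edgeR with no filter and 58 by DESeq2. Deviations from the group means correlated at -0.40, 0.24 and 0.22 between same-numbered libraries, and at 0.61 between normoxia library 1 and hypoxia library 2. The labels do not say whether the replicate numbers pair the libraries, and these correlations cannot decide it. With the replicate block 19 genes and 0 members were called, and 38 genes and 0 members with GC correction and the block together.

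Of 362 single values under settings with all libraries 351 kept sign and call. NBN turned to -0.033 with a pseudocount of 1, -0.068 by library totals, -0.0012 after GC correction with or without the replicate block, -0.31, -0.27 and -0.21 by edgeR with TMM, RLE and no filter, and -0.26 by DESeq2. FANCF turned to -0.010 by library totals, -0.0055 after GC and length correction and -0.0027 by edgeR with TMM. With 1 library left out the sign turned in 15 members: MRE11 (-0.49 to 0.55), NBN (-0.47 to 0.64), RBBP8 (-0.49 to 0.58), EXO1 (-0.84 to 0.060), PALB2 (-0.44 to 0.11), RAD51C (-0.38 to 0.42), RAD51D (-0.28 to 0.091), RAD51AP1 (-0.88 to 0.72), EME1 (-0.22 to 0.33), FANCC (-0.12 to 0.21), FANCE (-0.024 to 0.35), FANCF (-0.21 to 0.23), FANCL (-0.31 to 0.078), FANCI (-0.33 to 0.31) and MSH6 (-0.34 to 0.053). FANCA, RAD54L, PMS2, FANCD2, FANCG and XRCC3 were negative, and RAD52, MUS81 and MSH3 positive, in all of these fits. The causes of these changes were not tested.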
